A study of Mus musculus with 6 samples.

Results

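The genes of the cytosolic ribosome's own proteins were followed across the cells of the mouse small intestine. Members were taken by symbol, as all Rpl and Rps genes with a numbered name plus Rplp0, Rplp1, Rplp2 and Rpsa, with pseudogenes left out. This gave 84 of 32285 genes in the deposited count tables, 52 for the large subunit and 32 for the small one. Single cells had been captured in 6 droplet libraries of small intestinal epithelium, 3 from control littermates and 3 from mice labelled as HuR knockout, called IE-HuR-/- here. HuR, encoded by Elavl1, is an RNA-binding protein, and the knockout mice carried HuR flox/flox alleles and a villin-Cre transgene, which is active in intestinal epithelium and not in immune cells. The sample labels call the controls wild-type, whereas the study's methods describe them as HuR fl/fl littermates without Cre, so by the methods both groups shared the floxed alleles. The mice were of C57BL/6 background and 6 to 8 weeks old by the methods. The labels give normal feeding, and the methods describe fasting before experiments, without saying whether this held for the sequenced animals.

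Each ribosome joins a small subunit, which reads the mRNA, to a large subunit, which forms the peptide bond, and every subunit needs 1 copy of nearly every ribosomal protein. Messages of these proteins carry a pyrimidine tract at their very start, the terminal oligopyrimidine or TOP motif, through which growth signals acting on mTOR and LARP1 set their translation and stability together. In the intestine, ribosomes are built mainly by dividing cells of the crypt, whose daughters become enterocytes that move up the villus and are shed at its tip.

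The start regions of the members on which the results below turn are shown first, so that paralogs can be set beside the classical genes they pair with. Each sequence covers 15 bases before and 15 from the annotated start in RefSeq for GRCm38.p6, on the strand of the gene. Capitals mark the longest uninterrupted run of C and T that touches the 10 bases on either side of the start. Rps27 lies at chr3:90213634-90213663 (minus strand), Rps27l at chr9:66946071-66946100 (plus), Rpl22 at chr4:152325711-152325740 (plus), Rpl22l1 at chr3:28805493-28805522 (plus), Rpl28 at chr7:4792950-4792979 (plus) and Rpl7l1 at chr17:46782642-46782671 (minus).
Rps27: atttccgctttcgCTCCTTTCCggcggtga
Rps27l: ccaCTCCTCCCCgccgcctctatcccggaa
Rpl22: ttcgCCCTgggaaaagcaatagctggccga
Rpl22l1: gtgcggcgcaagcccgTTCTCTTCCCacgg
Rpl28: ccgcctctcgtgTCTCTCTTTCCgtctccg
Rpl7l1: gtgaggCTgcgcaagcgcagtagctgaagc
The runs of Rps27 and Rps27l were both 9 bases long, that of Rpl22l1 was 10 bases against 4 in Rpl22, that of Rpl28 was 11, and that of Rpl7l1 was 2. The Rps27 run began at position -2 and crossed the annotated start. That of Rps27l began at -12 and lay wholly before it, as did those of Rpl22 and Rpl7l1. Of the 64 members with a promoter entry, 35 (54.7%) had a run of at least 6 bases there, against 29.6% of 20203 other genes and 29.7% of all genes with an entry. Runs wholly before the start are in these counts too, so a long run need not lie in the message. The annotated start need not be the start used in these cells, so a short run says only that these letters were not in this window.

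The libraries held 8613 to 15041 cell barcodes and 59518012 to 91818560 UMIs each, where a UMI is a tag that counts 1 RNA molecule. Cell classes were gated by summed marker genes, and the names below stand for cells that passed such a gate. Of 60706 barcodes, 31189 passed exactly 1 gate, with a median of 4904 UMIs, and the 29517 that did not had a median of 897. Elavl1 RNA stood at 29.3, 31.2 and 29.3 CPM (counts per 1000000 UMIs of the same cells and library) in gated epithelial cells of the control libraries and at 31.1, 30.9 and 31.8 CPM in those of the IE-HuR-/- libraries. These ranges overlapped, and in lower-villus enterocytes Elavl1 was higher in the libraries labelled IE-HuR-/- (log2 fold change 0.36, SE 0.07, adjusted p = 5.76e-05 by edgeR, using its quasi-likelihood test and the Benjamini-Hochberg method). Which exons the deletion removes is not given in the sources used here, so this count is no check of the labels, and directions below are between libraries as labelled. The labels give each library a replicate number without naming an animal, while the study's figure legends describe 3 animals per genotype. The p-values rest on the spread between these libraries, and edgeR draws each gene's spread toward that of all genes. An edgeR p-value is thus not a measure of a gene's own spread alone. The suspension had been tested for EPCAM by the study, yet 5509 gated cells were T or NK cells, with 61564 to 67209 CPM of their 12 markers. In 435 cases a barcode sequence occurred in 2 or more libraries, which touched 440 gated cells.

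Ribosomal protein genes supplied a large part of the RNA of dividing epithelial cells and very little of that of mature ones. In cycling progenitors, epithelial cells with markers such as Mki67 and Top2a, their share of all UMIs was 23.5%, 12.2% and 21.8% in the control libraries and 17.0%, 21.3% and 18.7% in the IE-HuR-/- libraries, over 146 cells in all. In the 9210 lower-villus enterocytes it was 1.72%, 1.86% and 1.79% in control and 1.87%, 2.03% and 1.99% in IE-HuR-/- libraries. In the 3761 villus-tip enterocytes it was 0.497%, 0.563% and 0.554% in control and 0.609%, 0.606% and 0.628% in IE-HuR-/- libraries. The order progenitor, lower villus, mid-villus, tip was thus the same in 6 of 6 libraries, with no overlap between neighbouring classes. Within a library, progenitors exceeded lower-villus cells 9.96-fold (median of 6, range 6.57 to 13.7), lower-villus exceeded mid-villus cells 2.19-fold (2.10 to 2.27), and mid-villus exceeded tip cells 1.5-fold (1.35 to 1.62). Progenitors of control library 2 stood apart, with the lowest share and 12.3% of mitochondrially encoded UMIs, the highest of the 6, and without that library the mean log2 ratio of progenitors to lower-villus cells was the largest of the 6 values with 1 library left out, 3.44. The 16 stem-marker cells, too few for more than a value, ranged from 22.7% to 32.5%.

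**Figure D1:**
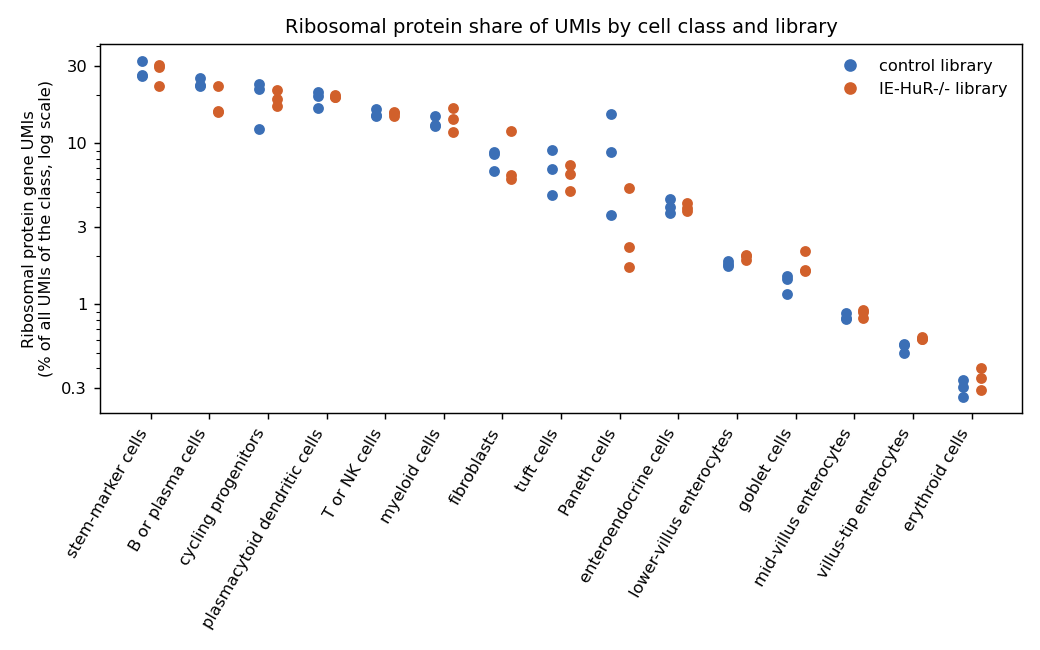
Share of all UMIs that came from the 84 ribosomal protein genes (y axis, percent, log scale) in each gated cell class (x axis), with 1 point per library coloured by label. Progenitors and lymphoid classes sit mostly above 12%, enterocytes fall from about 2% to near 0.6% toward the tip, and erythroid cells lie lowest at 0.266% to 0.399%.

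Secretory cells spread widely. Goblet cells, which make mucus, had shares of 1.16% to 2.14%, and in 5 of 6 libraries lay below the lower-villus enterocytes. Enteroendocrine cells, which release hormones, had 3.70% to 4.51%, and chemosensory tuft cells 4.79% to 9.03%, above enteroendocrine cells in 6 of 6 libraries. This rests on sums over 10 to 24 tuft cells, and by the median cell tuft lay below enteroendocrine cells in IE-HuR-/- library 2 (2.52% against 3.77%) and library 3 (3.43% against 3.54%). The 15 Paneth cells, too few for more than a value, ranged from 1.71% to 15.2%. Immune cells were near the progenitors. T or NK cells had 14.7%, 15.05% and 16.2% in control and 15.4%, 15.7% and 14.8% in IE-HuR-/- libraries, 8.16-fold the lower-villus share (median, range 7.41 to 9.08). They lay below the progenitors in 5 of 6 libraries and above them in control library 2. B or plasma cells had 22.5% to 25.4% in control libraries and 15.7%, 15.9% and 22.8% in IE-HuR-/- libraries, where the 2 low values came with 9 and 10 plasma-rich cells of low share (9.01% and 8.66%), and the remaining cells of those libraries had 23.4% and 26.5%. Myeloid cells had 11.7% to 16.7%, and plasmacytoid dendritic cells 16.7% to 20.7%. Erythroid cells, which discard their ribosomes as they mature, were lowest at 0.266% to 0.399%. Per cell, the lower-villus share had a median of 1.53%, with the central 90% of cells between 0.302% and 5.66%, so single cells varied far more than libraries. The share also moved with the number of UMIs per cell. Over 5 depth intervals in lower-villus enterocytes it ran between 1.49% and 2.94% in control and between 1.52% and 3.56% in IE-HuR-/- libraries. The part of depth in the class differences was not tested.

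The fall along the villus was graded. Enterocytes were placed in 7 intervals of the summed UMIs of 7 tip markers (among them Ada, Nt5e and Klf4) per 10000 UMIs of the cell, an analysis added after the data were seen. The median library share fell from 3.97% in the interval under 8 to 2.87%, 1.46%, 0.966%, 0.724%, 0.591% and 0.569% in the interval of 240 and over. Depth differed between intervals too, with a median library value of 1819 UMIs per median cell under 8. It was 2922 at 32 to 60 and 15585 at 240 and over, and the part of depth in this fall was not tested. In the first interval 1 IE-HuR-/- library stood apart at 8.95%, where these libraries held only 32 to 51 cells each. The class limits cut through this gradient, and 5427 and 2278 of the 23002 enterocytes lay within 25% of the limits of 32 and 120, so the 3 enterocyte classes are ranges and not cell types.

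**Figure D2:**
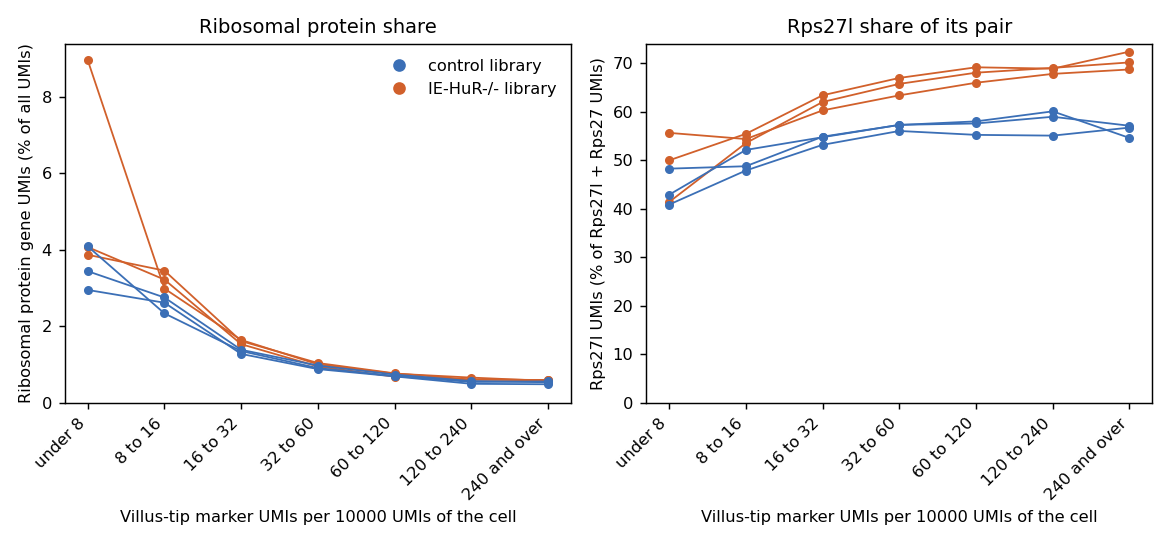
Values by interval of villus-tip marker UMIs per 10000 UMIs of the cell (x axis, 7 intervals from the base to the tip), with 1 line per library coloured by label, for the ribosomal protein share of all UMIs (left, percent) and Rps27l as a percent of its pair with Rps27 (right). The share falls from 2.95% to 8.95% in the first interval to 0.489% to 0.600% in the last, and the Rps27l percent is higher in all 3 IE-HuR-/- than in all 3 control libraries in 6 of 7 intervals.

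Nearly every member fell from progenitors to the tip. In an edgeR fit over all genes with the library as a block, 80 of 81 tested members were lower in villus-tip enterocytes than in cycling progenitors and 0 were higher, where 31.4% of all tested genes were called lower (72.6% in either direction). The members' median log2 fold change was -3.87 against 0.26 for all genes. This fit used TMM scaling, which sets the bulk of genes near 0, and without it the medians were -5.21 and -1.04. The largest falls were those of Rpl3, which lies close to the peptidyl transferase centre (-6.96, SE 0.24), Rpl14 of the large subunit (-6.03, SE 0.23) and Rps18 of the small subunit's head (-5.88, SE 0.24), with adjusted p of 7.40e-178, 3.70e-147 and 5.46e-131 in the edgeR test. Rpl3 stood at 2095, 1166 and 2063 CPM in progenitors of the control libraries and 1620, 2210 and 1861 CPM in those of the IE-HuR-/- libraries, and at 3.63, 7.84 and 3.88 CPM and 6.71, 6.41 and 6.25 CPM in their tip enterocytes. No tip library came near any progenitor library. P-values as small as those above, from 6 libraries, rest on a spread pooled over genes. They do not measure the spread of Rpl3 itself, which ran from 1166 to 2210 CPM in progenitors.

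The smallest changes were those of Rpl28, a large-subunit protein (-1.45, SE 0.21), Rpl7l1, the paralog of Rpl7 that takes part in large-subunit assembly (-1.33, SE 0.21), and Rps27l, the p53-inducible paralog of Rps27 (-0.04, SE 0.18, edgeR adjusted p = 0.841). Rps27l was the member that missed the threshold, and without TMM scaling it was called lower too (-1.38). In CPM it went from 641, 469 and 631 in control and 669, 664 and 695 in IE-HuR-/- progenitors to 175, 175 and 197 and to 316, 319 and 320 at the tip. Both groups of tip libraries were below all progenitor libraries in CPM, so the near-zero fold change rests on the scaling.

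**Figure D3:**
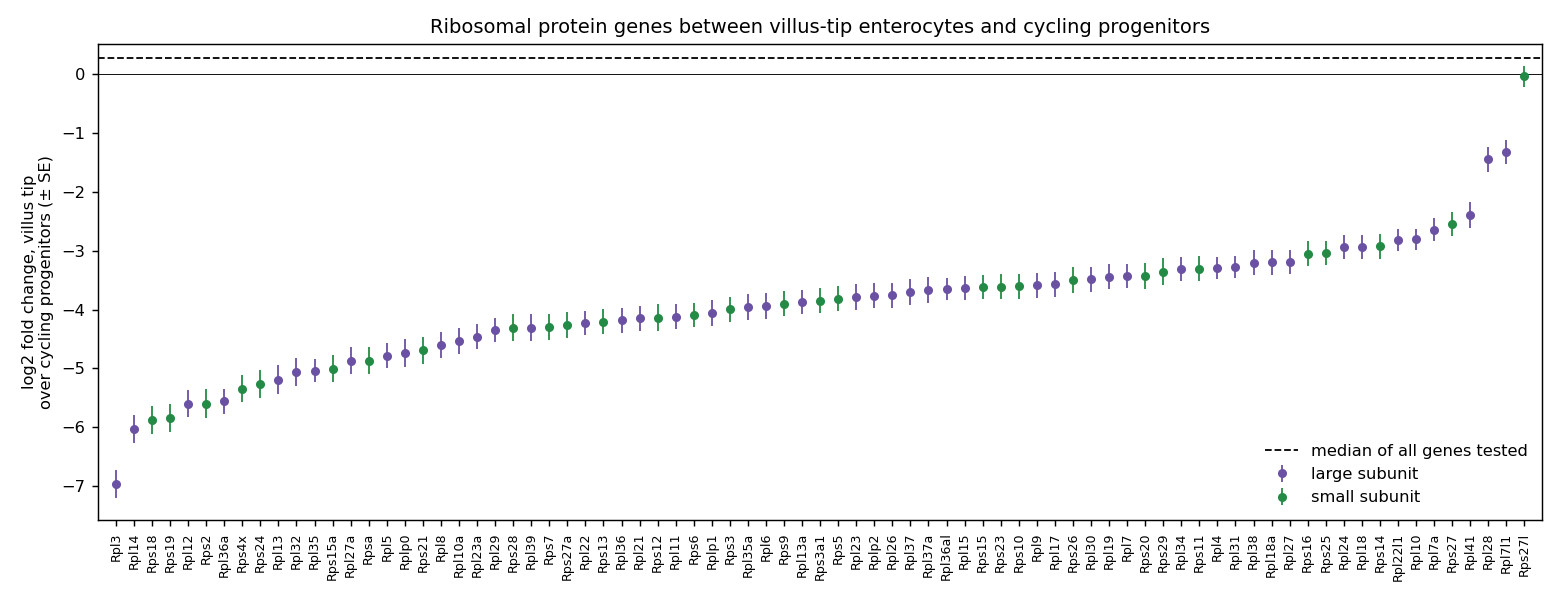
Log2 fold change of the tested members, 2 of which are not shown, between villus-tip enterocytes and cycling progenitors (y axis, points with ± SE from the edgeR fit), ordered along the x axis and coloured by subunit, with a dashed line at the median of all genes tested (0.26). All points lie below 0, from Rpl3 at -6.96 to Rps27l at -0.04.

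Between lower villus and tip, a comparison added after the data were seen, 80 of 81 members were lower at the tip and 1 was higher, where 42.0% of all genes were called lower and 37.3% higher (79.3% in either direction). The median was -1.37 against -0.09 for all genes, and -1.84 against -0.56 without TMM scaling. Rpl3 (-3.10, SE 0.10), Rps18 (-2.52, SE 0.07) and Rps24, a small-subunit protein (-2.49, SE 0.06), fell most. Rpl28 was the member called higher (0.37, SE 0.08, edgeR adjusted p = 6.68e-04), and without TMM scaling its sign turned (-0.10). Its CPM values were 413, 457 and 430 in lower-villus and 360, 381 and 358 in tip enterocytes of the control libraries, and 560, 614 and 605 against 618, 591 and 615 in the IE-HuR-/- libraries. In CPM it was thus lower at the tip in all 3 control libraries and in 1 IE-HuR-/- library. Rpl7l1 (-0.28, SE 0.07) and Rps27l (-0.33, SE 0.10) fell least.

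Because members fell by such different amounts, the makeup of the remaining ribosomal protein RNA changed along the villus. Genes are compared here by UMIs, which count molecules and do not grow with transcript length. In progenitors Rps29, a small zinc-binding protein, was the highest member with 2.72% of all ribosomal protein UMIs. In lower-villus enterocytes the highest were Rps29 with 3.94%, Rpl41, a very short basic peptide of the large subunit, with 3.64%, and Rpl38 with 2.72% (medians over libraries of 744, 697 and 518 CPM). Rpl28 led at the tip with 8.64% of ribosomal protein UMIs, ahead of Rpl41 with 5.72% and Rps27l with 4.45%. The 10 highest members together made up 21.0% of ribosomal protein UMIs in progenitors, 24.7% in lower-villus, 30.4% in mid-villus and 35.2% in tip enterocytes. In erythroid cells, Rpl41 alone took 12.6%. Over 81 members, the log levels of progenitors correlated with those of lower-villus cells at r = 0.66 and with those of tip cells at r = 0.38, and T or NK cells correlated with B or plasma cells at r = 0.96. These are descriptions across genes that share libraries. Lowest in lower-villus cells by median over libraries, among members with at least 10 UMIs per library, were Rpl7l1 (28.4 CPM), Rpl35 (52.0 CPM) and Rpl3 (66.9 CPM), the last level with Rpl36a (67.0 CPM), whose range of 58.9 to 71.6 CPM lay within that of Rpl3 (55.9 to 84.0 CPM).

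T or NK cells had more of nearly all members than lower-villus enterocytes. Of 82 tested members, 81 were higher and 1 was lower, where 46.7% of all genes were called higher and 42.9% lower (89.6% in either direction). The median log2 fold change was 2.22 against 0.11 for all genes, and 3.07 against 0.95 without TMM scaling. Largest were Rpl39l (3.96, SE 0.78), which rests on 53 UMIs in the gated cells, Rpl12 (3.89, SE 0.12), a protein at the base of the ribosomal stalk, and Rps15a of the small subunit (3.74, SE 0.11). Rps27l went the other way (-2.19, SE 0.12, edgeR adjusted p = 1.18e-08), and Rpl7l1 (0.32, SE 0.07) and Rpl7a (0.66, SE 0.07) differed least among those that were higher. In T or NK cells Rps27l stood at 168, 164 and 166 CPM in control and 172, 176 and 153 CPM in IE-HuR-/- libraries, against 363, 358 and 381 CPM and 472, 501 and 471 CPM in their lower-villus enterocytes. These ranges were far apart. Droplets of T or NK cells also held 3217 to 6828 CPM of the 13 enterocyte markers, whose level in lower-villus cells was 68582 CPM or more, and how much of the T-cell Rps27l came with such free RNA was not tested.

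Paralog use differed between classes. Of each pair of classical gene and paralog, the paralog's percent of the pair's UMIs is given. Rps27l made up 20.4% to 27.8% of its pair with Rps27 in progenitors, 50.8% to 61.1% in lower-villus and 55.6% to 70.2% in tip enterocytes, 25.1% to 30.8% in goblet cells and 4.56% to 5.19% in T or NK cells. Rpl22l1, the paralog of Rpl22, made up 27.1% to 40.1% in progenitors, 39.7% to 46.5% in lower-villus and 55.5% to 60.6% in tip enterocytes, and 28.6% to 30.5% in T or NK cells. Both paralogs thus gained on their partners toward the tip. Rpl7l1 rose from 3.74% to 7.08% of its pair in progenitors to 15.1% to 24.0% at the tip, where Rpl7 had fallen further. Rpl36al, whose protein is nearly identical to that of Rpl36a, held 41.4% to 59.9% in progenitors, 72.9% to 74.5% in lower-villus enterocytes and 46.7% to 48.6% in T or NK cells.

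Over 16 within-library comparisons of neighbouring classes, and of T or NK cells with lower-villus enterocytes, 14 held in 6 of 6 libraries (exact two-sided sign-flip test over 6 libraries, p = 0.03125, the smallest this design allows, Benjamini-Hochberg adjusted p = 0.0357). From progenitors to lower-villus cells, Rps27l gained 32.5 percentage points (SD 3.40, n = 6), Rpl36al 23.1 points (SD 6.59), Rpl22l1 10.1 points (SD 3.78) and Rpl7l1 5.52 points (SD 1.46). The exceptions were both from mid-villus to tip, where Rps27l was higher in 5 of 6 libraries (1.68 points, exact p = 0.0625) and Rpl36al in 2 of 6 (-1.53 points, exact p = 0.34375). Paralogs known from testis or muscle were nearly absent, with 1 UMI of Rpl10l, 53 of Rpl39l and 2 of Rpl3l in gated cells.

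**Figure D4:**
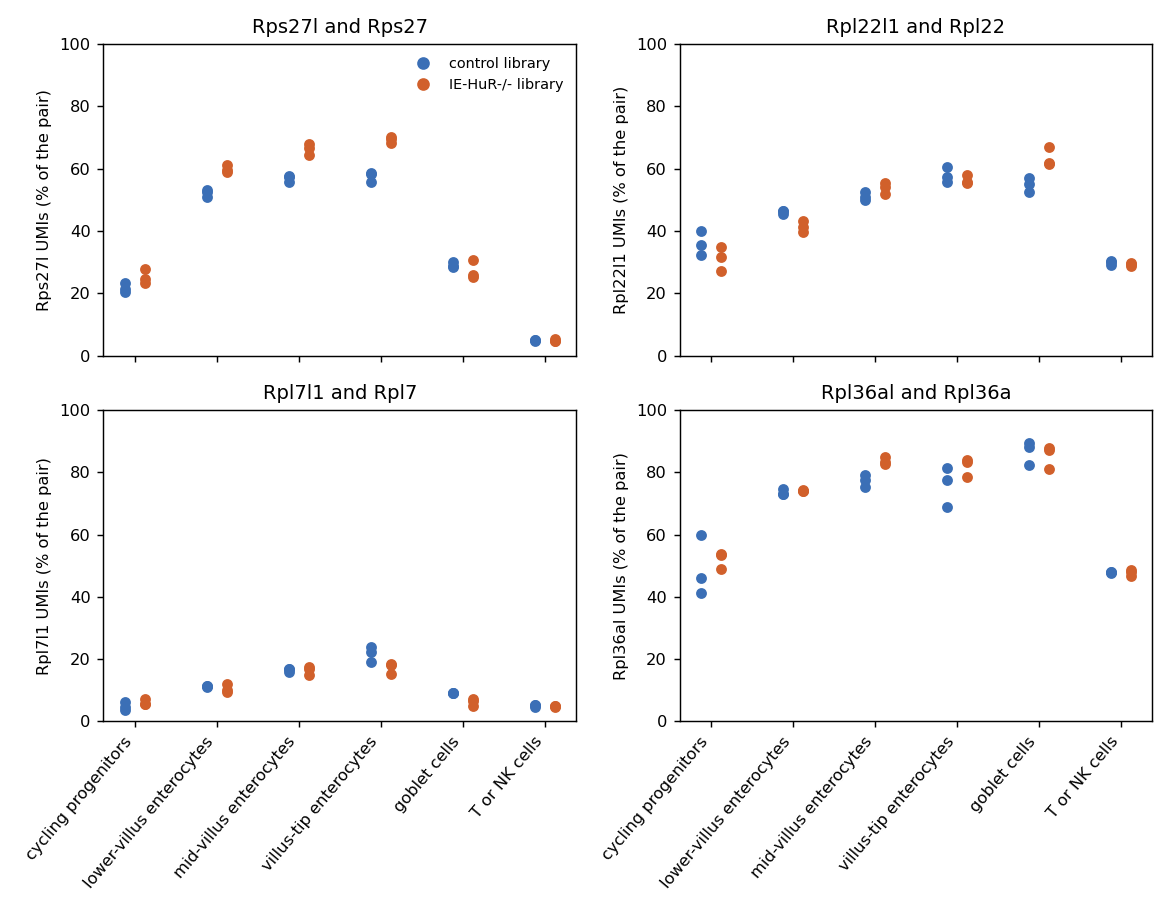
Paralog UMIs as a percent of the UMIs of each pair (y axes, 0 to 100) by cell class (x axes), with 1 point per library coloured by label and 1 panel per pair. Rps27l runs from about 5% in T or NK cells to 55.6% to 70.2% at the villus tip, and separates the labels in the enterocyte classes.

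Sequence shared with other genes limits some members. Of the 84, 64 share no stretch of 50 bases in GENCODE transcripts with another counted gene, and 12 share at least 5% of theirs. Annotated genes outside the 32285 counted ones were not compared. For 3 of them, Rpl10 (73.7%), Rps18 (73.1%) and Rpl36a (62.2%), most such stretches are shared and reads there match several genes, so their levels, the fall of Rps18 included, are uncertain. For Rps27 the share is 46.2%, with Rps27rt. With UMIs of Rps27rt added to Rps27, the Rps27l percent of the pair in lower-villus enterocytes was 49.6% to 51.9% in control and 57.8% to 59.8% in IE-HuR-/- libraries.

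Between the labels, the ribosomal protein share was higher in IE-HuR-/- libraries in some epithelial classes and not in T or NK cells. In lower-villus enterocytes the lowest IE-HuR-/- library lay just above the highest control library, the mean shares being 1.96% ± 0.0812 (SD, n = 3) against 1.79% ± 0.0737 (SD, n = 3). Over UMIs other than mitochondrially encoded and ribosomal RNA these libraries overlapped, with 2.404% in control library 2 and 2.398% in IE-HuR-/- library 1. By the median cell they overlapped too, with 1.623% in control library 3 and 1.621% in IE-HuR-/- library 3. At the tip the means were 0.614% ± 0.0122 against 0.538% ± 0.0360, with no overlap, and in goblet cells 1.79% ± 0.3004 against 1.37% ± 0.181, with no overlap. In mid-villus, enteroendocrine, T or NK, erythroid and progenitor cells the libraries overlapped, with means of 15.3% in T or NK cells under both labels. Tuft and Paneth libraries overlapped too, with lower means in IE-HuR-/- than in control libraries. These were 6.28% against 6.92% in tuft cells and 3.08% against 9.18% in the 15 Paneth cells. In erythroid cells, which are not epithelial, the means were 0.347% in IE-HuR-/- and 0.303% in control libraries. Their log2 ratio was 0.196, beside 0.134 in lower-villus and 0.191 in tip enterocytes. Shares are sums over the chosen genes and carry no test. Within depth intervals, the pooled share was higher in IE-HuR-/- libraries in 5 of 5 for lower-villus, tip and goblet cells, in 4 of 5 for cycling progenitors, with 6 to 32 cells per label and interval, in 3 of 5 for mid-villus and in 1 of 5 for T or NK cells. Depth moved with the label at the tip, where the median cell had 11930 to 16690 UMIs in control and 9815 to 10403 in IE-HuR-/- libraries, and in the deepest tip interval the shares were 0.522% and 0.529%.

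Among single members in lower-villus enterocytes, 62 of 81 were higher in IE-HuR-/- libraries and 0 lower, where 21.6% of all tested genes were called higher and 20.8% lower (42.4% in either direction). The median log2 fold change was 0.24 against -0.01 for all genes. Without TMM scaling the medians moved to 0.11 and -0.14 and the count to 34 higher and 0 lower. For the fits, shares of all genes called are given for the report's main setting only, here and below. Counts without TMM, with a library left out or under any other alternative thus stand here without such a share. Alone, they do not show whether members were called more often than all genes. Of the large subunit 37 of 49 rose, and of the small subunit 25 of 32. In plain CPM, all 3 IE-HuR-/- libraries lay above all control libraries for 32 members and below them for 1, against 14.4% and 40.2% of all genes.

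The 5 largest rises were those of Rps2, Rpl28, Rps27l, Rpl12 and Rps21. Rps2, near the mRNA entry of the small subunit, had 150, 184 and 165 CPM in control and 197, 259 and 256 CPM in IE-HuR-/- libraries (log2 fold change 0.64, SE 0.15, edgeR adjusted p = 0.0263). Rpl28 had 413, 457 and 430 CPM against 560, 614 and 605 CPM (0.58, SE 0.05, edgeR adjusted p = 2.18e-10). For Rps27l the values were 363, 358 and 381 CPM against 472, 501 and 471 CPM (0.52, SE 0.05, edgeR adjusted p = 6.24e-10). None of these 3 overlapped between labels, but Rps2 lost its call when any of 4 single libraries was left out (adjusted p 0.0559 to 0.0935). Rpl12 had 60.7, 66.6 and 56.8 CPM against 67.9, 83.7 and 87.4 CPM (0.50, SE 0.09, edgeR adjusted p = 0.00214), and lost its call without control library 1 (adjusted p = 0.0878). Rps21 had 155, 179 and 166 CPM against 211, 223 and 210 CPM (0.49, SE 0.05, edgeR adjusted p = 1.63e-08). The stalk proteins, which recruit elongation factors, rose as well, with log2 fold changes of 0.41 for Rplp0, 0.43 for Rplp1 and 0.41 for Rplp2, and so did Rpsa, the small-subunit protein also known as the laminin receptor (0.41). Rps27, the partner of Rps27l, had 0.07 (adjusted p = 0.265), and Rpl7l1 had 0.02 (adjusted p = 0.826).

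In mid-villus enterocytes 34 of 81 members were higher and 0 lower, where 23.6% of all genes were called higher (46.3% in either direction), with a median of 0.13 against -0.02. This result depended on the scaling: without TMM 13 were higher and 9 lower, with medians of -0.01 and -0.16. In plain CPM, 10 members lay above in all libraries and 11 below, against 15.4% and 42.7% of all genes. Largest were Rpl28 (0.73, SE 0.05), Rps27l (0.67, SE 0.05), Rpl36al (0.61, SE 0.06), Rpl22l1 (0.53, SE 0.06) and Rps2 (0.52, SE 0.14). Rpl28 had 367, 396 and 382 CPM against 552, 601 and 564 CPM, and Rps27l had 258, 251 and 264 CPM against 338, 404 and 374 CPM. Both stood well clear of the control libraries in CPM itself, whereas Rps2, with 41.1, 55.0 and 43.2 CPM against 52.0, 62.9 and 66.5 CPM, overlapped and was not called without TMM scaling (adjusted p = 0.107).

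At the tip 47 of 81 members were higher, where 24.0% of all genes were (46.9% in either direction), and 1 was lower, where 23.0% were. The median was 0.21 against -0.03, and without TMM scaling 28 were higher and 5 lower, with medians of 0.06 and -0.18. In plain CPM 27 members lay above and 4 below, against 16.3% and 42.0% of all genes. Rps27l had 175, 175 and 197 CPM in control and 316, 319 and 320 CPM in IE-HuR-/- libraries (0.96, SE 0.05, edgeR adjusted p = 5.79e-15). Rpl28 had 360, 381 and 358 CPM against 618, 591 and 615 CPM (0.88, SE 0.04, edgeR adjusted p = 1.23e-15). Neither gene overlapped between labels. Rps2 (0.67), Rpl22, an RNA-binding protein of the large subunit (0.66), and Rps26, which lies at the mRNA exit channel (0.60), followed, and Rps26 had 88.2, 93.7 and 97.9 CPM against 126.6, 127.6 and 128.2 CPM. Rpl7l1 was the member called lower, with 18.1, 16.7 and 22.3 CPM against 15.04, 14.4 and 12.8 CPM (-0.28, SE 0.11, edgeR adjusted p = 0.0437). It lost its call under 6 alternatives, among them DESeq2 (adjusted p = 0.169) and leaving out control library 3 (adjusted p = 0.289).

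**Figure D5:**
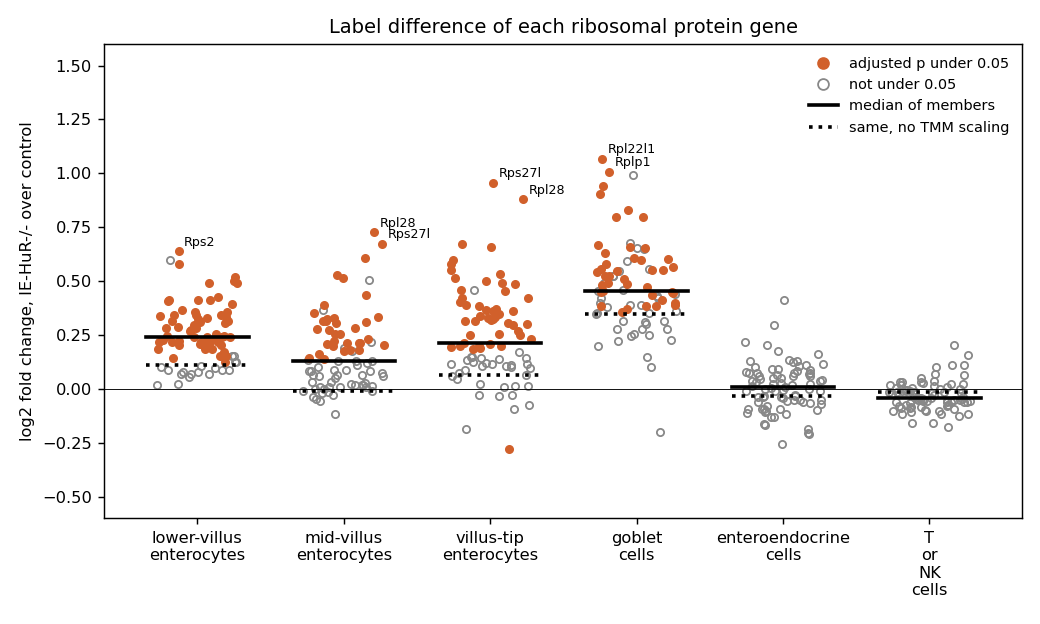
Log2 fold change of IE-HuR-/- over control libraries (y axis) for each tested member (points, filled where the edgeR adjusted p is under 0.05) in each class (x axis), with the members' median as a solid bar and the median without TMM scaling as a dotted bar. Medians are 0.24, 0.13 and 0.21 in lower-villus, mid-villus and tip enterocytes, 0.45 in goblet cells and -0.04 in T or NK cells.

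Goblet cells had the largest median, 0.45 against -0.02 for all genes, with 41 of 81 members higher and 0 lower, where 10.2% of all genes were called higher and 8.36% lower (18.6% in either direction). Without TMM scaling 24 were higher, with medians of 0.35 and -0.12. Without control library 2, which had the lowest goblet share, 26 were called, and without IE-HuR-/- library 3, which had the highest, 24. In plain CPM 29 members lay above and 0 below, against 11.9% and 23.0% of all genes. Rpl22l1 had 79.2, 64.9 and 86.8 CPM against 150, 125 and 171 CPM (1.07, SE 0.13, edgeR adjusted p = 2.11e-06). Rplp1 (1.01, SE 0.15), Rpl3 (0.94, SE 0.22), Rps26 (0.90, SE 0.12) and Rps29 (0.83, SE 0.12) were next. Rps29 stood at 598, 435 and 566 CPM against 862, 753 and 1026 CPM, without overlap. The mitochondrially encoded share of goblet UMIs moved with the label too, at 7.75%, 9.13% and 9.94% in control and 5.48%, 6.12% and 7.32% in IE-HuR-/- libraries, and its part in these differences was not tested. Over UMIs other than mitochondrially encoded and ribosomal RNA, the ribosomal protein share of goblet cells was 1.84%, 1.45% and 1.72% against 1.85%, 1.93% and 2.54%, so that the labels did not overlap but control library 1 and IE-HuR-/- library 1 were nearly level.

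No member was called by edgeR in 4 further classes. In T or NK cells 0 of 81 passed, where 4.73% of all genes did (2.67% higher and 2.05% lower), 1 was higher and 3 were lower at an unadjusted p under 0.05, DESeq2 called 0, and the median was -0.04 against 0.00 for all genes. There Rpl28 had 1587, 1649 and 1810 CPM in control and 1657, 1718 and 1542 CPM in IE-HuR-/- libraries, which overlapped. In enteroendocrine cells 0 of 81 passed, where 0.736% of all genes did (0.509% higher), with 1 higher at an unadjusted p under 0.05, 0 called by DESeq2 and a median of 0.01. In erythroid cells 0 of 72 passed, where 5.65% of all genes did (2.01% higher), with 10 higher at an unadjusted p under 0.05, 0 called by DESeq2 and a median of 0.25. In cycling progenitors, fitted although control library 3 had only 10 such cells and the others 16 to 38, 0 of 81 passed, where 0% of all genes did, with 0 at an unadjusted p under 0.05, 0 called by DESeq2 and a median of -0.12. The share of all genes at an unadjusted p under 0.05 was not counted. The unadjusted counts of these 4 classes therefore cannot be set against a background. A miss does not show that the labels were alike, least of all where the SEs were large. For Rpl28 the SE was 0.14 in enteroendocrine, 0.22 in erythroid and 0.28 in progenitor cells. In T or NK cells it was 0.06, near the 0.05 of lower-villus enterocytes.

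The label difference itself was compared between lower-villus enterocytes and T or NK cells in 1 model with an interaction term. It was greater in the enterocytes for 39 of 82 members and smaller for 0, where 6.23% of all genes were called greater and 4.96% smaller (11.2% in either direction), with a median of 0.27 against 0.04. Among the largest were Rps2 (0.73, SE 0.09), Rpl28 (0.66, SE 0.09), Rps27l (0.55, SE 0.10) and Rpl3 (0.52, SE 0.10), with edgeR adjusted p of 3.07e-04 to 0.00575. The count was fragile. It fell to 12 without TMM scaling, where the median was 0.10 against -0.13 for all genes, and to 4 without control library 1, 15 without IE-HuR-/- library 1, 6 without IE-HuR-/- library 2 and 5 without IE-HuR-/- library 3.

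For the paralog pairs, the Rps27l percent of its pair was 52.4%, 50.8% and 53.2% in lower-villus enterocytes of control libraries and 58.8%, 61.1% and 59.5% in those of IE-HuR-/- libraries, a difference of 7.65 points. At the tip it was 58.4%, 55.6% and 58.2% against 68.1%, 70.2% and 69.5%, a difference of 11.9 points. Neither overlapped. In mid-villus enterocytes the difference was 9.46 points. It was -1.78 points in goblet, 0.51 in enteroendocrine and -0.06 in T or NK cells, so the gain was not seen in all epithelial classes. For Rpl22l1 itself, the log2 fold change by label in lower-villus enterocytes was 0.07 (edgeR adjusted p = 0.304). That of its partner Rpl22 was 0.34 (edgeR adjusted p = 6.56e-06). The Rpl22l1 percent of this pair was lower in IE-HuR-/- libraries in lower-villus enterocytes (-4.67 points) and higher in goblet cells (8.67 points), again without overlap. Of 24 such comparisons over 4 pairs and 6 classes, 9 reached 0.1, the smallest p that an exact two-sided permutation test of 3 against 3 libraries can give, and the smallest Benjamini-Hochberg adjusted p was 0.267, so none could pass 0.05. Along the 7 villus intervals, Rps27l in CPM was higher in all IE-HuR-/- than in all control libraries in 7, its percent of the pair in 6 and the ribosomal protein share in 4.

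Sums of genes used as position markers moved with the label too. The 8 lower-villus markers, among them the antimicrobial genes Reg3b and Reg3g, summed to 7731 to 9190 CPM in lower-villus enterocytes of control and to 28907 to 30894 CPM of IE-HuR-/- libraries, and in goblet cells to 5791 to 6627 and 15190 to 28122 CPM. All 8 were detected in each class, but a sum does not show which of them carried the difference. Markers of T or NK cells in lower-villus enterocytes summed to 70.6 to 128.2 CPM and 93.9 to 136 CPM, all 12 detected, which overlapped. Counts of gated enterocytes along the tip-marker intervals moved with the label as well. Under 8 they were 74 to 136 per control and 32 to 51 per IE-HuR-/- library. In the interval 8 to 16 they were 397 to 703 and 200 to 213. At 240 and over they were 136 to 156 and 224 to 272, so more lay at the tip end in IE-HuR-/- libraries. In the remaining intervals the libraries overlapped. The part of any of these in the label differences was not tested. Whole libraries had ribosomal protein shares of 2.28% to 2.48% in control and 2.99% to 3.05% in IE-HuR-/- libraries, which also depends on the cells captured.

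Other genes of the ribosome's life were counted from lists, to be read against the shares of all genes called in the same fits. These were 31.4% lower and 41.3% higher at the tip than in progenitors, 46.7% higher and 42.9% lower in T or NK cells than in lower-villus enterocytes, and 21.6% higher and 20.8% lower by label in the latter. Of the ribosome biogenesis genes, 29 of 30 were lower at the tip than in progenitors and 0 higher (median -4.51), among them the nucleolar proteins Ncl (-3.56) and Npm1 (-4.58) and the growth regulator Myc (-5.99). Against lower-villus enterocytes, 30 of 30 were higher in T or NK cells (median 2.89). By label 2 were higher and 1 lower of 27 tested in lower-villus enterocytes (median -0.03). Of 20 translation factors and other TOP messages, 19 were lower at the tip than in progenitors and 1, Eif4a2, was higher (1.61), with a median of -2.01. By label in lower-villus enterocytes 6 of these 20 were higher and 4 lower (median 0.06). Of 4 ribosomal or ribosome-bound proteins without such a symbol, 4 were lower at the tip than in progenitors, from Rack1 (-4.71) to Fau (-0.52), and 2 were higher by label in lower-villus enterocytes. Of 10 regulators of ribosomal protein translation, 5 were higher and 3 lower at the tip than in progenitors, 3 were higher and 5 lower in T or NK cells than in lower-villus enterocytes, and 4 were higher and 1 lower by label in the latter. Ddit4, an inhibitor of mTOR signalling, was higher in IE-HuR-/- libraries by 0.44 in lower-villus, 1.02 in mid-villus and 1.35 in tip enterocytes on the log2 scale, with edgeR adjusted p of 0.0331, 7.09e-08 and 1.61e-12. Its mean level in the lower-villus fit was only 3.35 CPM. The other regulators called there were Eif4ebp2 (0.35), Rptor (0.28) and Rps6kb2 (0.24), all higher, and Rps6kb1 (-0.29), lower. In mid-villus enterocytes they were Eif4ebp2 (0.46), Rps6kb2 (0.42) and Mtor (0.36), higher, and Rps6kb1 (-0.38) and Sesn2 (-0.35), lower. At the tip they were Eif4ebp1 (0.53), Rps6kb2 (0.46), Mtor (0.34) and Eif4e (0.30), higher, and Larp1 (-0.61) and Rps6kb1 (-0.40), lower. In these fits 23.6% and 24.0% of all genes were called higher, and 22.7% and 23.0% lower. Activity of mTOR was not tested.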

How the data were processed

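The authors deposited, for each of 6 droplet libraries, raw UMI counts per gene and barcode. Per the labels these were made with Cell Ranger and Seurat on mm10, and the matrix headers name Cell Ranger 6.1.2. The labels name a 5′ kit, whereas the methods name a 3′ kit and a human reference. The gene names are mouse. Filters on cells are not given in the sources used here.

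Members, gene lists and gate limits were chosen with earlier results of these data known. Barcodes with at least 200 genes and 1000 UMIs were gated by summed markers per 10000 UMIs, and barcodes that passed more than 1 gate or none were left out. No doublet caller was run. UMIs were summed per library and class. Classes with at least 20 cells in every library were fitted over all genes with edgeR 4.0.16 (TMM, filterByExpr, quasi-likelihood, Benjamini-Hochberg adjusted p under 0.05) in R 4.3.3 with limma 3.58.1. Fits by label used 3 against 3 libraries, and class comparisons had the library as a block. SE is the log2 fold change over the root of F. The fits by label in classes with at least 20 cells in every library were checked on simulated data. The class comparisons, the interaction fit and the progenitor fit were not. DESeq2 1.42.0, no TMM, no low-count filter, other depth limits, and leaving out each library were alternatives. Python 3.11.15 with pandas 2.3.3, scipy 1.17.1 and matplotlib 3.10.9 did the rest. Named were Elavl1, paralog pairs, the stalk genes and Rpsa, the 3 highest and 3 lowest members in lower-villus enterocytes, the 5 largest rises and falls among members called by label, and the 3 extremes of each class comparison. Other genes come from the lists. Values of 2 members that the rule or a figure would name are not reported here.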

Additional observations from a re-analysis of the deposited data

Results flagged for a closer look

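Ribosomal protein genes differed by label more in lower-villus enterocytes than in T or NK cells of the same libraries. The difference of the label effects passed the interaction test (edgeR quasi-likelihood, Benjamini-Hochberg adjusted p under 0.05) for 39 of 82 members, where 6.23% of all genes were called greater. Without TMM scaling the count was 12, and with 1 library left out it ranged from 4 to 41, with 4 without control library 1 and 15, 6 and 5 without IE-HuR-/- libraries 1, 2 and 3. Among the largest were Rps2 (0.73 on the log2 scale), Rpl28 (0.66), Rps27l (0.55) and Rpl3 (0.52).

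Barcodes outside every cell class also carried ribosomal protein RNA. Of ungated barcodes with at least 1000 UMIs, 4.81%, 6.27% and 5.72% in the control libraries had a ribosomal protein share of at least 10%, against 12.2%, 10.9% and 10.6% in the IE-HuR-/- libraries, each of which lay above every control library. They numbered 922 in all. These cells entered no comparison, and what they are was not tested.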

How the results depend on the processing

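Of the values that answer a comparison, 335 recomputations stayed within 1 SD, or within 1.5 times for a count, and 32 did not. Among single genes 518 kept direction and call, 21 lost the call, 1 gained it and 1 turned sign: Rpl28 between tip and lower villus, -0.10 without TMM. Without TMM scaling, the counts by label were 34 in lower-villus, 22 in mid-villus and 24 in goblet cells, and 12 for the interaction. Without a filter on low counts they were 64 in goblet and 2 in T or NK cells. Without the 5% of cells with most UMIs they were 65 in goblet, 1 in T or NK and 1 in erythroid cells, and the Rpl36al label difference was -0.10 points (0.61 in the report's setting). With cells of at least 500 UMIs, 1 was called in erythroid cells. As log2 ratios of ribosomal protein shares, lower over mid-villus was 1.18 for cells of at least 3000 UMIs, 1.03 without the deepest 5%, 1.07 over UMIs other than mitochondrially encoded and ribosomal RNA and 0.78 as a median over cells. Mid-villus over tip was 0.73 as a median over cells. T or NK over lower-villus cells was 2.92 in cells of at most 25% mitochondrially encoded UMIs, 2.90 without those UMIs and ribosomal RNA, and 3.21 as a median over cells. By label, the median over cells gave 0.22 in mid-villus and 0.31 in tip enterocytes. The cause of these shifts was not tested. With 1 library left out, calls by label ranged over 52 to 68 in lower-villus, 28 to 43 in mid-villus, 39 to 52 in tip, 24 to 55 in goblet, 0 to 0 in enteroendocrine, 0 to 2 in T or NK, 0 to 4 in erythroid and 0 to 3 in progenitor cells. They were 80 to 80, 82 to 82 and 81 to 81 between classes and 4 to 41 for the interaction. Replicate numbers did not pair the libraries, as deviations of same-numbered libraries correlated at -0.15 to 0.08. With the replicate block, 67, 41, 51 and 53 members were called in lower-villus, mid-villus, tip and goblet cells, and 0 in the other classes. The shares of all genes called under these alternatives are not given.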
